A study of Mus musculus with 4 samples.

Results

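Potassium channels and HCN channels set how a neuron rests, fires and responds to its synapses. This report describes the 3′ ends of their mRNAs in the CA1 neuropil, the hippocampal layer that holds mainly the dendrites of CA1 pyramidal neurons, together with axons and glia. The genes were chosen by name, as all entries of the polyA site table whose symbol starts with Kcn or with Hcn and a digit. They comprised 53 of the 9297 polyA sites and 44 of the 7202 genes, and they held 208 of the 34672 tags.

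The samples were 4 replicates of 1 group, and no other group was analysed here. All came from C57BL/6 mice of genotype Camk2a-Cre x Pabpc1-cTag, which the methods describe as adult, and several mice were pooled for each replicate. In these mice the Camk2a promoter drives Cre in excitatory neurons, and Cre adds GFP to PABPC1, a protein that binds poly(A) tails and is here expressed from its own gene. In cTag-PAPERCLIP, ultraviolet light links RNA to this protein, the protein is purified by its tag, and short RNA fragments (tags) are sequenced from the 3′UTR next to the poly(A) tail. Because a tag marks the end of an mRNA, its count does not grow with the length of the mRNA, and shares of tags were compared between genes directly.

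Potassium channels let potassium leave the cell and so bring the membrane back toward rest. Voltage-gated members end action potentials and limit how far they travel into dendrites, calcium-activated members add to the hyperpolarization after a spike, inward rectifiers and 2-pore-domain channels hold the resting potential, and auxiliary subunits change the gating and surface level of the pore-forming proteins. HCN channels open on hyperpolarization and pass an inward cation current. CA1 pyramidal neurons are known for HCN and A-type potassium currents that increase along the apical dendrite.

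Replicates 1 to 4 held 16017, 6609, 5947 and 6099 tags, and a count of 0 in them allows a share of up to 0.0187%, 0.0454%, 0.0504% and 0.0492%. Replicate 1 stood apart, since 4030 of its tags lay at a single site that is no channel gene's, against 1, 134 and 99 in the others. Except where stated, these tags stay in its total and lower every share of replicate 1. Of the 10 pyramidal neuron markers, 7 had tags, with 0.249% ± 0.0394 of tags (SD, n = 4), while Slc17a7 and Spink8 were at 0 and Camk2a had no entry under its own name (215 tags lay at sites within the annotated Camk2a gene). All 8 astrocyte markers (0.163% ± 0.0939) and all 6 oligodendrocyte markers (0.285% ± 0.184) also had tags, as did 5 of 8 interneuron markers (0.168% ± 0.107), with Gad2, Slc32a1 and Vip at 0. Of 6 microglia markers, 2 had tags, and these totalled 4. The part of other cell types in the channel tags was not tested, and fewer cells of a type cannot be told apart from less RNA per cell.

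The sites that carried the family are shown first. Of the 53 channel sites, 12 (22.6%) had tags in at least 3 replicates, against 14.3% of all sites. Their sequences were read from the mm10 (GRCm38) assembly on the strand of the gene, 5′ to 3′, as 30 bases that begin 15 bases before the site. Capitals mark the copy of the poly(A) signal AATAAA or ATTAAA nearest to the site.
Kcnab2, chr4:152390751-152390780, minus strand: tggaatggcaAATAAAacccgagccctttg
Kcnma1, chr14:23292304-23292333, minus strand: gtatttttcgcagATTAAAaatttatgtat
Kcnh3, chr15:99242782-99242811, plus strand: tatattaaaaaacATTAAAaaaaaataaaa
Kcna2, chr3:107114966-107114995, plus strand: attctgtgtgaaatgacaaaAATAAAattt
Kcnj2, chr11:111076786-111076815, plus strand: ttattttattatttctaAATAAAaattgaa
Hcn2, chr10:79736077-79736106, plus strand: ccccattccgcgcAATAAAcgacagcattg
Kcnip3, chr2:127456508-127456537, minus strand: tcagtcctatatattttAATAAAagaaact
Kcnj3, chr2:55598099-55598128, plus strand: gagtctaatatatttggaaaAATAAAgaat
Kcnab1, chr3:65378182-65378211, plus strand: tttatttgcttagagtAATAAAggcatctg
Kcnmb4, chr10:116417872-116417901, minus strand: gctcctcacaaatATTAAAagacagtgctc
Kcnj6, chr16:94744990-94745019, minus strand: ttcctctttttttgactggaacAATAAAag
Kcnh1, chr1:192510122-192510151, plus strand: attttatttattatggtAATAAActatttt

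All 12 windows hold a signal. In Kcna2, Kcnj2, Kcnip3, Kcnj3, Kcnab1, Kcnj6 and Kcnh1 it begins after the base of the site. The listed base is therefore not read as the exact last base of the mRNA. The sites of Kcnab2, Kcnh3, Kcna2, Kcnj2, Hcn2, Kcnip3, Kcnj3, Kcnab1, Kcnmb4 and Kcnh1 lay between 16 and 31 bases before the annotated end of the gene. The Kcnma1 site lay 2887 bases before the end of that gene, and the Kcnj6 site lay 3.63 kb past the end of its gene in GENCODE vM21.

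Channel genes took 0.499% of the tags in replicate 1, 1.10% in replicate 2, 0.353% in replicate 3 and 0.557% in replicate 4 (80, 73, 21 and 34 tags). The mean share was 0.629% ± 0.329 (SD, n = 4), and without replicate 2 it was 0.470%. Replicate 2 was high because of 1 gene. Without Kcnab2 the shares were 0.318%, 0.333%, 0.336% and 0.541%, or 0.382% ± 0.106, and replicate 2 no longer stood apart. With sites outside 3′UTRs also left out, the shares were 0.293%, 0.303%, 0.269% and 0.344%, or 0.302% ± 0.0314 (47, 20, 16 and 21 tags). These are still percent of all tags of a replicate, which in replicate 1 include the 4030 at a single site. How even the replicates are without that site was not computed for the reduced sets. Both of these reduced sets were chosen after the values were seen. The 95% Wilson intervals of the share of all channel genes ran from 0.402% to 0.621% in replicate 1 and from 0.879% to 1.39% in replicate 2, so these replicates differed by more than counting error.

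**Figure D1:**
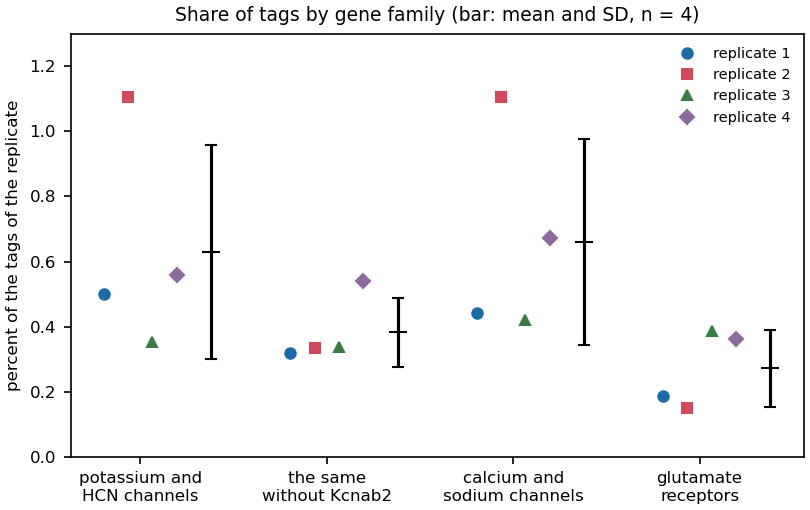
Percent of the tags of each replicate at sites of potassium and HCN channel genes, of the same genes without Kcnab2, of calcium and sodium channel genes and of glutamate receptor genes, with 1 point per replicate and a bar for the mean and SD (n = 4). Replicate 2 is the highest for the channel genes at 1.10%, and without Kcnab2 it lies at 0.333%, beside replicates 1 and 3.

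GENCODE vM21 lists 98 protein-coding genes under these names, and 44 of them (44.9%) had tags, against 29.4% of all 21924 protein-coding names. All 4 HCN genes had tags, as did 8 of 15 inward rectifiers, 19 of 40 voltage-gated pore subunits, 3 of 8 calcium- or sodium-activated genes, 6 of 17 auxiliary subunits and 4 of 14 2-pore-domain genes. Differences between classes were not tested, and the counts include Hcn4, Kcnt2 and Kcns3, whose single tag lay more than 10 kb past the gene. Counts were low, as in the whole table. Of the 44 genes, 29 (65.9%) had at most 3 tags over the 4 replicates together, against 73.9% of all genes, and 19 (43.2%) had a single tag, against 43.7%. A gene without an entry may still be expressed below this depth.

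Repeated detection is given beside that of the whole table, with no test of the difference. Of the 53 channel sites, 17 (32.1%) had tags in more than 1 replicate, against 34.2% of all sites, and these 17 held 161 (77.4%) of the channel tags. By gene, 20 of 44 (45.5%) were seen in more than 1 replicate, against 47.4% of all genes. The 13 genes seen in at least 3 replicates made up 29.5%, against 22.5% of all genes. Kcnab2, Kcnma1, Kcnh3 and Kcna2 had tags in all 4 replicates.

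**Figure D2:**
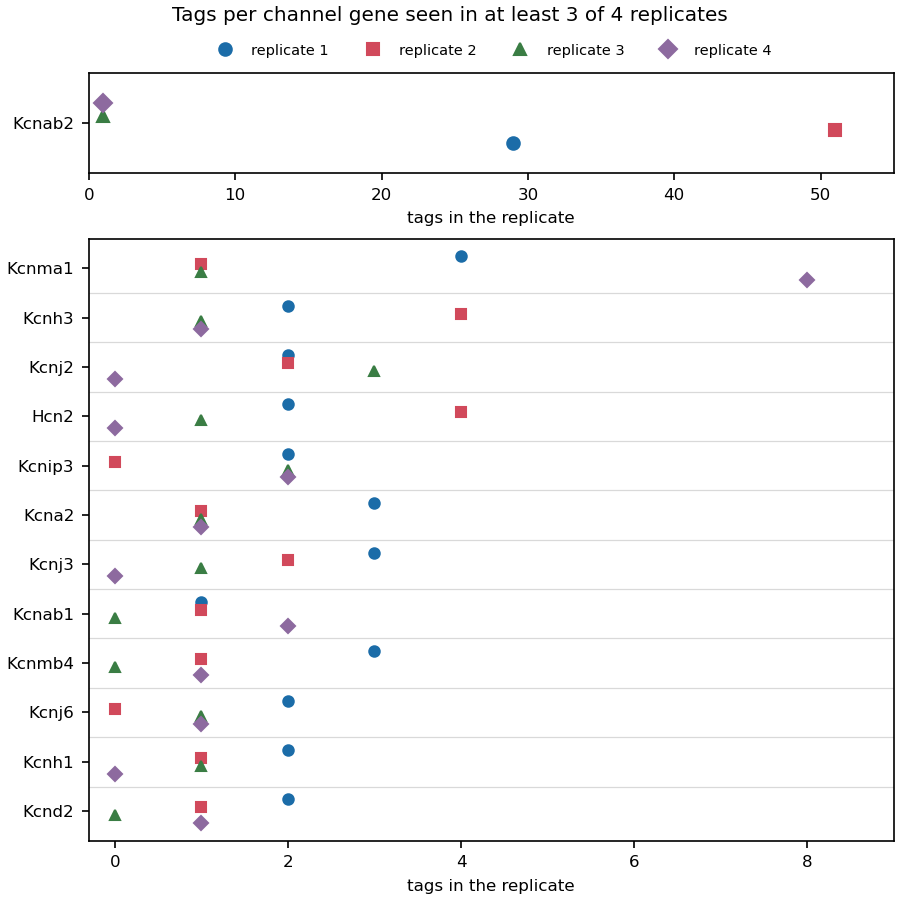
Tags in each replicate for the 13 channel genes seen in at least 3 replicates, in the order of their mean share of tags, with 1 symbol per replicate and Kcnab2 on an axis of its own. Kcnab2 had 29 and 51 tags in replicates 1 and 2 and 1 tag in each of replicates 3 and 4, and no other channel gene passed 14 tags in total.

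Auxiliary subunits held 100 of the 208 tags (0.302% ± 0.350, and 0.130% without replicate 2), and 82 of these belonged to Kcnab2. Kcnab2 encodes a cytoplasmic beta subunit of the Shaker-type channels, a protein with the fold of an aldo-keto reductase that promotes their transport to the axon and the cell surface. Its tags lay at 1 site in the 3′UTR, 2270 bases past the stop codon, and were 29, 51, 1 and 1 in replicates 1 to 4. The shares were 0.181% (95% Wilson interval 0.126% to 0.260%), 0.772% (0.587% to 1.01%), 0.0168% (0.00297% to 0.0952%) and 0.0164% (0.00289% to 0.0928%). Replicates 1 and 2 therefore held 80 of the 82 tags, with intervals that did not meet those of replicates 3 and 4. The mean share was 0.246% ± 0.359 (SD, n = 4), rank 26 among all genes, and without replicate 2 it was 0.0714%.

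Kcnab2 was the only channel gene with at least 20 tags, the minimum set for testing whether a share differed between replicates. An exact multinomial test of its counts against the library totals gave an adjusted p of 5.34e-19 (Benjamini-Hochberg over 211 genes). Such a difference was common in these libraries, since 147 of the 211 genes tested (69.7%) passed an adjusted p of 0.05. In 63 of the 211 (29.9%) the share was also higher in both replicates 1 and 2 than in replicates 3 and 4. A gap as wide as that of Kcnab2 was less common, and in 12 called genes the lower of replicates 1 and 2 was over 10 times the higher of replicates 3 and 4. The test covers counting error only, because tags copied by PCR are not independent molecules.

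Oligodendrocyte markers and GC-rich sites were also highest in replicate 2, while astrocyte markers were not. Oligodendrocyte markers took 0.281%, 0.545%, 0.185% and 0.131% of tags in replicates 1 to 4 (45, 36, 11 and 8 tags over all 6 markers), highest in replicate 2 and lowest in replicate 4. Mbp, which encodes the major myelin basic protein, had 20, 27, 6 and 2 tags. Astrocyte markers took 0.293%, 0.0908%, 0.168% and 0.0984%, lowest in replicate 2. The sequence within 100 bases of the Kcnab2 site has a GC content of 59.7%, and sites with a GC content of at least 55% held 4.46%, 6.78%, 3.22% and 2.55% of tags in the 4 replicates, leaving out the site with the most tags. The Kcnab2 site, with 29, 51, 1 and 1 tags, is itself among these GC-rich sites, so their shares partly repeat its counts. The part of the marker and GC measures in the Kcnab2 counts was not tested.

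The other auxiliary subunits were even across replicates. Without Kcnab2 this class had 7, 3, 3 and 5 tags, a share of 0.0554% ± 0.0180 (SD, n = 4). Kcnip3, an EF-hand calcium sensor that binds A-type channels and is also known as a transcriptional repressor, had 2, 0, 2 and 2 tags (0.0197% ± 0.0164). Kcnmb4, the main beta subunit of BK channels in neurons, had 3, 1, 0 and 1 tags (0.0126% ± 0.0085). Kcnab1, a beta subunit that gives Shaker-type channels fast inactivation, had 1, 1, 0 and 2 tags (0.0135% ± 0.0143, and 0.00712% without replicate 4). These 3 genes did not differ beyond their spread.

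**Figure D3:**
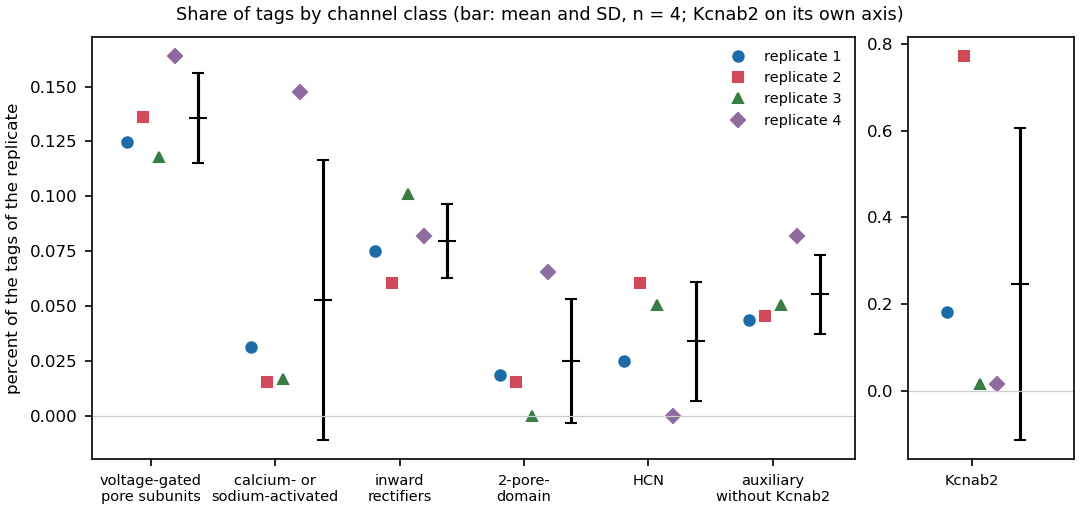
Percent of the tags of each replicate by class of channel gene, with 1 point per replicate and a bar for the mean and SD (n = 4), and Kcnab2 at the right on an axis of its own. With Kcnab2 apart from its class, voltage-gated pore subunits had the highest mean at 0.136% ± 0.0203, and the calcium- or sodium-activated class was set by replicate 4.

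Voltage-gated pore subunits held the most tags of the pore-forming classes, with 23 sites, 19 genes and 46 tags (20, 9, 7 and 10). Their share was 0.125%, 0.136%, 0.118% and 0.164%, or 0.136% ± 0.0203 (SD, n = 4), so the replicates lay close together. Kcnh3, a member of the ether-a-go-go family expressed in the forebrain, had 2, 4, 1 and 1 tags (0.0266% ± 0.0227, and 0.0152% without replicate 2), with the highest share in replicate 2. Kcna2, a Shaker-type channel known from axons, had 3, 1, 1 and 1 tags and the smallest SD of the 4 genes seen in all replicates (0.0168% ± 0.0015). Its site lay 9377 bases past the stop codon, at the annotated end of one of the longest 3′UTRs among these genes. The order of Kcnh3 and Kcna2 was within the spread of Kcnh3.

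Kcnh1, also of the ether-a-go-go family, had 2, 1, 1 and 0 tags (0.0111% ± 0.0076). Kcnd2, the pore subunit of the dendritic A-type current in CA1 pyramidal neurons, had 2, 1, 0 and 1 tags (0.0110% ± 0.0075) over 3 sites, and its tag of replicate 2 lay in an intron, 138 kb before the end of the gene, with no signal nearby. The Kcnd2 site seen in more than 1 replicate, chr6:21729782 on the plus strand, lay 2440 bases past the stop codon and 23 bases before the end of the gene. Neither gene could be told apart from Kcna2 at this depth. Kcnc1 and Kcnc2, known from fast-spiking interneurons, had 0, 1, 0, 0 tags and 0, 0, 0, 2 tags, and were named from the list of interneuron channels.

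Inward rectifiers held 27 tags (12, 4, 6 and 5) at 10 sites of 8 genes, a share of 0.0796% ± 0.0168 (SD, n = 4). Kcnj2, a strong rectifier that sets the resting potential, had 2, 2, 3 and 0 tags (0.0233% ± 0.0219, and 0.0142% without replicate 3) at a site 3731 bases past the stop codon. Kcnj3 and Kcnj6 encode subunits of the G-protein-gated channels that carry slow synaptic inhibition in pyramidal neurons. Kcnj3 had 3, 2, 1 and 0 tags (0.0165% ± 0.0125), of which 1 tag of replicate 2 lay 1101 kb past the gene, and Kcnj6 had 2, 0, 1 and 1 tags (0.0114% ± 0.0079). None of these 3 genes differed from the next beyond its spread. Kcnj10, the potassium buffering channel of astrocytes and oligodendrocytes, had 2, 0, 0 and 0 tags, and Kcnj16, its partner in glia, had no entry.

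All 4 HCN genes had tags, and together they held 4, 4, 3 and 0 tags (0.0340% ± 0.0272, SD, n = 4). A count of 0 in replicate 4 allows a share of up to 0.0492%, which is above this mean. Hcn2 had 2, 4, 1 and 0 tags (0.0225% ± 0.0264, and 0.00977% without replicate 2), at a site 16 bases before the end of the gene with a GC content of 60.2%. Hcn3 had 0, 0, 1 and 0 tags. The single Hcn4 tag lay 175 kb past the end of Hcn4, so that it gives no level for that gene.

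Calcium- and sodium-activated channels held 5, 1, 1 and 9 tags (0.0527% ± 0.0637, SD, n = 4), and without replicate 4 the share was 0.0211%. Kcnma1, the pore subunit of the large-conductance BK channel that opens with voltage and calcium, accounted for 4, 1, 1 and 8 of these (0.0470% ± 0.0563, and 0.0190% without replicate 4). Its 3′UTR site, 7703 bases past the stop codon, had 4, 1, 1 and 2 tags. The 6 other tags came from replicate 4 alone and lay at 2 intron sites of the gene, which are shown because they set the difference between the replicates.
Kcnma1 intron, 17.2 kb before the gene end, chr14:23306628-23306657, minus strand: gtgaaacttttgtggaATTAAAaaaaaaaa
Kcnma1 intron, 300 kb before the gene end, chr14:23589793-23589822, minus strand: gggacaacttatatttttcaaaaaaaaaaa

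Both windows end in a run of at least 10 A encoded in the genome, and the second holds no signal. With a minimum of 10 tags, Kcnma1 also differed between replicates (exact multinomial test, adjusted p = 0.0206 over 533 genes, of which 40.3% passed). Over the family, intron sites had 0, 1, 1 and 7 tags. A run of at least 10 A was in the window of 6 channel sites (11.3%), against 5.16% of all sites, and these 6 were each seen in 1 replicate. By class it was in 3 of 5 channel intron sites, against 19.9% of the 493 intron sites of the table, and in 2 of 40 channel 3′UTR sites, against 1.10%. Whether tags at such runs come from mRNA ends was not tested.

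The 2-pore-domain channels, which carry leak current, had 3, 1, 0 and 4 tags (0.0249% ± 0.0283, and 0.0113% without replicate 4). The 4 tags of replicate 4 were all of Kcnk9, an acid-sensitive leak channel, at a site 10226 bases past the stop codon, the longest 3′UTR of the family. Kcnk9 was named after its values were seen.

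The kinds of site are likewise given beside those of the whole table, with no test. Of the 53, 40 (75.5%) lay in a 3′UTR, against 76.5% of all sites, 7 (13.2%) lay between genes, against 15.3%, and 5 (9.43%) lay in an intron, against 5.30%. A signal, AATAAA or ATTAAA on the strand of the site within 50 bases on either side, was found at 43 (81.1%), against 78.1% of all sites. AATAAA was nearest to the site in 33 of these and ATTAAA in 10. Among sites in more than 1 replicate it was found at 16 of 17 (94.1%), against 84.3%. Of the 53 sites, 22 (41.5%) lay within 100 bases of the end of their gene, a median of 23 bases before it, and the same share of all sites did so. Median GC content was 37.8%, against 37.3%. The 7 sites outside the gene they were named for included 4 that lay more than 10 kb past it, those of Hcn4, Kcns3 and Kcnt2 and a second Kcnj3 site, with 1 tag each.

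The 3′UTRs that ended at channel sites were longer at the median than those of the table. The spliced distance from the stop codon, in the longest transcript model at the site, had a median of 1782 bases over the 40 channel sites (quartiles 524 and 3799), against 1130.5 bases over 6502 sites of all genes (483 and 2283.5). It ran from 106 bases for Kcnk12 to 10226 bases for Kcnk9. Over 3 kb were 13 of 40 (32.5%), against 16.3% of all measured sites. Kcna2, Kcnma1, Kcnh1, Kcnj2 and Kcnj3 were among the 13 and were each seen in at least 3 replicates, so long 3′UTRs were not limited to sites with a single tag. The shift was not tested, since sites are not replicates.

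**Figure D4:**
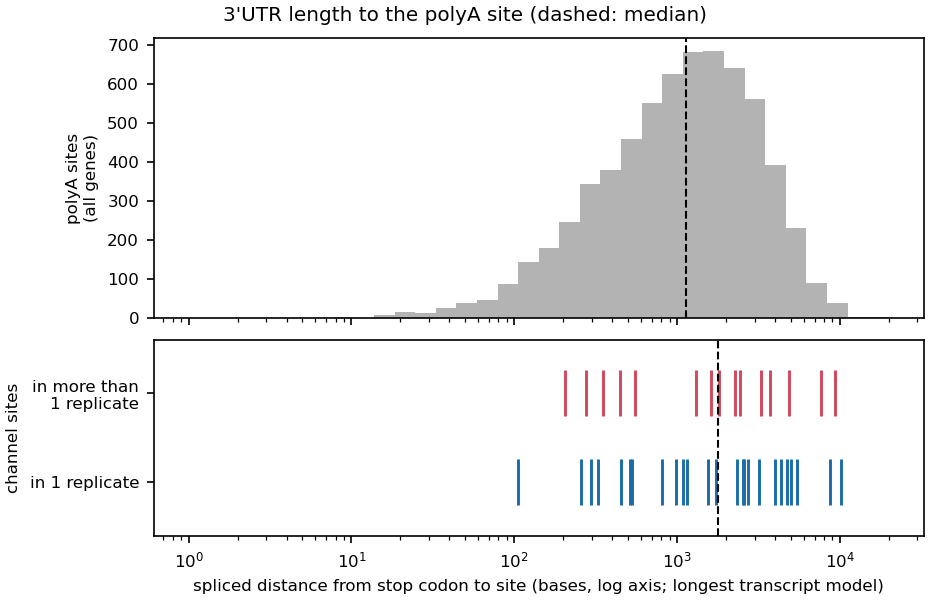
Spliced distance in bases from the stop codon to the polyA site on a log axis, as a histogram over 3′UTR sites of all genes above and as 1 line per channel site below, split by whether the site was seen in more than 1 replicate. Dashed lines mark the medians, 1130.5 bases for all genes and 1782 bases for the channel sites.

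Of the 44 genes, 7 had more than 1 site, among them Kcnd2, Kcnj3 and Kcnma1. To compare distal with proximal sites within these libraries, at least 2 sites of a gene seen in more than 1 replicate were required here. No channel gene had them, against 215 of all 7202 genes (2.99%), so the comparison could not be made at this depth.

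Genes of proteins that bind or anchor these channels were looked up as well. Of 23 listed partners, 16 had tags, against 29.4% of all protein-coding names, and 10 of the 16 had them in at least 3 replicates, against 22.5% of all genes with tags, while 7 were at 0 (Lrrc26, Lrrc52, Lrrc55, Akap5, Abcc8, Abcc9 and Crbn). Dlg4, the postsynaptic scaffold that clusters Shaker-type and inward rectifier channels, had 45, 26, 11 and 17 tags (0.285% ± 0.0853). Pex5l, the HCN subunit that directs these channels to distal dendrites, had 5, 1, 1 and 2 tags (0.0240% ± 0.0093). Dpp6 and Dpp10, the transmembrane subunits of A-type channels, had 1, 1, 0, 2 tags and 2, 0, 2, 2 tags, and Ank3, an anchor of channels at the axon initial segment, had 1, 1, 2 and 1.

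Cntnap2 and Lgi1 are tied to Shaker-type channels of axons. Cntnap2 had 1, 0, 9 and 23 tags (0.134% ± 0.177, and 0.0525% without replicate 4), and Lgi1 had 1, 1, 9 and 8 tags (0.0760% ± 0.0759). Both had a higher share in replicates 3 and 4 than in replicates 1 and 2. This order was found in 6 of the 10 partners seen in at least 3 replicates and the reverse order in 2, some of them at equal tag counts where library totals alone set the order. Over all genes, 49 of the 211 tested (23.2%) were called with this order, and Lgi1, with 19 tags, was below the minimum for that test. These 49 needed at least 20 tags and a call, which the 6 partners did not. The share of all genes with this order, counted as for the partners, was not computed. Interneuron markers had the same order, with 0.0687%, 0.0908%, 0.219% and 0.295% of tags in replicates 1 to 4 (11, 6, 13 and 18 tags). Much of this was Npy, with 4, 0, 6 and 12 tags, while Gad1 had 3, 1, 2 and 2 and Cck 3, 4, 5 and 3. The part of interneurons in the Cntnap2 and Lgi1 counts was not tested.

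The family was then set against other membrane proteins, within each replicate, so that library depth cancels. With 4 replicates the exact sign-flip permutation test (two-sided) cannot go below p = 0.125, so no ratio could reach 0.05. Calcium and sodium channel genes, with 26 genes and 35 sites, had 71, 73, 25 and 41 tags (0.660% ± 0.317). The log2 ratio of potassium and HCN channel tags to these was 0.17, 0.00, -0.25 and -0.27, with a mean of -0.09 ± 0.21 (SD, n = 4, exact permutation p = 0.5, adjusted p = 0.5 over 3 ratios). The families were thus level in every replicate to within 0.27 on the log2 scale. Without Kcnab2 the ratio was -0.48, -1.73, -0.32 and -0.31, a mean of -0.71 ± 0.68, which is a description only, since taking a gene from the channel side can only lower the ratio.

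Glutamate receptor genes, 16 genes with 33 sites, had 30, 10, 23 and 22 tags (0.272% ± 0.119). The log2 ratio of channel to receptor tags was 1.42, 2.87, -0.13 and 0.63. Its mean was 1.19 ± 1.28 (exact permutation p = 0.25, adjusted p = 0.5), and 3 of 4 replicates lay above 0. Without Kcnab2 the mean was 0.57 ± 0.56, and 3 of 4 replicates lay above 0.

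Pore-forming genes (38 genes, 47 sites) had 44, 19, 17 and 28 tags, and auxiliary genes had 36, 54, 4 and 6. The log2 ratio of pore-forming to auxiliary tags was 0.29, -1.51, 2.09 and 2.22, with a mean of 0.77 ± 1.76 (exact permutation p = 0.375, adjusted p = 0.5). Without Kcnab2 it was 2.65, 2.66, 2.50 and 2.49, a mean of 2.58 ± 0.09, again as a description, since taking a gene from the auxiliary side can only raise the ratio. The spread between replicates in this ratio lay in Kcnab2.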

How the data were processed

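The authors deposited raw tag counts, not normalized, per polyA site (1 base) for 4 replicates of CA1 neuropil cTag-PAPERCLIP. The submitters' processing notes name cutadapt, Novoalign and mm10, and the methods name the CTK package for calling sites. How multi-mapping and duplicate tags were handled is not given in the sources used here, and neuropil and cell body samples were pooled after barcoding. Counts were summed by gene name and turned into percent of a replicate's tags. With 5947 to 16017 tags per replicate, intervals (95% Wilson) and limits of 0 (3 tags) cover counting error only. None of 9294 sites lay past a GRCm38 chromosome end, and 7112 lay within the GENCODE vM21 gene of their name.

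Tests were exact sign-flip permutations of log2 ratios over replicates and exact multinomial tests per gene (chi-square above 200 tags) with Benjamini-Hochberg adjustment, checked on simulated data. Tools were Python 3.11.15, scipy 1.17.1, pysam 0.24.0 and, for the TMM factors of 1 alternative, edgeR 4.0.16 in R 4.3.3. Named genes were channel genes with tags in at least 3 replicates, Hcn genes, Kcnj10, Kcnj16 and listed partners in at least 3 replicates; Kcnc1 and Kcnc2 come from the marker lists; others are marked, and some genes under this rule are not reported here. The members and lists were chosen with earlier results of these data known. Alternatives were other library totals, site filters, tag minimums, gene names and leaving out each replicate.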

Additional observations from a re-analysis of the deposited data

Results flagged for a closer look

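Among 25 values compared over the 4 replicates, 5 had a replicate far from the others by Dixon's criterion. For independent values, chance would give 1.25. These values overlap and many rest on few tags, so 5 against 1.25 is not a test. Replicate 4 was the highest for the channel genes without Kcnab2 (ratio of gap to range 0.920), for pore-forming genes (0.931), for calcium- and sodium-activated channels (0.879) and for Kcnma1 (0.915). These 4 values share the 6 intron tags of Kcnma1 in replicate 4. Replicate 2 was the highest for Kcnh3 (0.910), where the counts were 2, 4, 1 and 1 tags. The Kcnab2 counts did not meet this criterion, since 2 replicates were high.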

How the results depend on the processing

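Of 51 alternatives for the comparisons, 46 stayed within the replicate spread or on the same side of the test, and 5 moved a count. The 17 channel sites seen in more than 1 replicate became 6 when at least 2 tags counted as seen and 4 when tags in all replicates were required. Channel genes with comparable distal and proximal sites went from 0 to 7 with all sites of the table, and to 7 with sites that held 5% or more of a gene's tags. With a minimum of 10 tags, 2 channel genes in place of 1 differed between replicates, and over all genes the count went from 147 to 215, to 48 with a minimum of 50 tags, and to between 83 and 108 with 1 replicate left out. Leaving out a replicate gave a channel share of 0.470% to 0.720%, 14 to 16 repeated sites, mean log2 ratios of -0.17 to -0.03 against calcium and sodium channels, 0.64 to 1.64 against glutamate receptors and 0.29 to 1.53 for pore-forming against auxiliary genes, 0 genes with comparable sites, and 1 gene that differed between replicates. The adjusted p of Kcnab2 (exact multinomial test) ran from 6.35e-20 to 0.00021 over the alternatives, the latter without replicate 2. With 3 replicates the sign-flip test cannot go below 0.25. The distal and proximal comparison without its leading gene was not run, since no gene entered it. No paired analysis was possible because there is 1 group. Of 145 alternatives for single genes, 141 stayed within the spread, though leaving out a replicate could not have moved a mean beyond it. Kcna2 moved to 0.0185%, 0.0232% and 0.0221%, and Kcnj6 moved to 0 when counting 3′UTR sites only, because its site lies past the annotated gene. At most 14 tags per gene other than Kcnab2 limit any order among them.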
